A study of Mus musculus with 14 samples.

Results

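Expression was followed for 97 genes whose names mark them as pseudogene copies of other mouse genes, in fibroblasts on their way to pluripotency. The members were chosen by name and level. Their symbol ends in -ps with or without a number, it does not begin with Rpl or Rps, and their FPKM (a read count scaled by transcript length and library depth) reached 1 or more in 2 or more of the 12 libraries that cover days 4, 5 and 10. Of 569 rows with such a name, 97 passed this level and 472 did not, among 26962 genes listed in all. The cells were mouse embryonic fibroblasts of strain OG2/129SV. All of them received Oct4, Sox2, Klf4 and c-Myc, the standard factors of reprogramming, together with either a control vector or Cdk9-DN, whose name marks it as dominant-negative Cdk9. They were kept in embryonic stem cell medium with serum and LIF, and RNA was collected 3, 4, 5 and 10 days after infection. The 14 libraries form 8 groups: each vector has 2 at each of days 4, 5 and 10, and a single one at day 3, which was not fitted. The labels do not tell whether replicate libraries were separate cultures, so the p-values reflect the spread between libraries alone. The promoter of the Cdk9-DN vector and the dose of each factor are not given in the sources used here, and Cdk9 itself was not analysed here.

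A processed pseudogene arises when a spliced messenger RNA is copied back into DNA and inserted elsewhere in the genome. It therefore has no introns of its own and no promoter carried over from its parent, and it often keeps a sequence close to the parent's. Genes that are strongly expressed in the germ line, such as those of translation, glycolysis and chromatin, have left many such copies. An unprocessed pseudogene is instead a decayed duplicate of a gene with its introns. Cdk9 phosphorylates paused RNA polymerase II and so lets it move on into elongation. A short read from a copy that matches its parent can be placed at either locus, and how the authors' pipeline shared such reads is not given in the sources used here. The values below are therefore the levels assigned to each row, and transcription of the copy and of the parent cannot be told apart where their sequences are the same.

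The label of processed pseudogene held for most members and not for all. The GENCODE M21 annotation (build GRCm38) holds 86 of the 97 identifiers. It types 71 of them as processed pseudogenes, 10 as unprocessed pseudogenes and 5 as protein-coding genes, and 77 have 1 exon. The 5 that it types as protein-coding are Cdc34-ps, Vma21-ps, B3gnt9-ps, Nutf2-ps1 and Rab42-ps. For 80 members a closest protein-coding transcript was found by alignment, from 63 distinct genes. The identity to it ran from 80.2% to 100%, with a median of 97.2%, and was at least 99% in 21 members. Apoo-ps, Dynlt1-ps1, Mrpl23-ps1, Nutf2-ps1, Pgam1-ps2 and Tpt1-ps3 matched their closest gene without a difference over the aligned length. Among all stretches of 50 bases in a member, the share found unchanged in its closest gene had a median of 36.5%, and it was at least 50% in 30 members. For 8 members without such an alignment the parent was taken from the name alone, Ppp1r2-ps2, Ppp1r2-ps6 and Ap3s1-ps2 among them. In total, 20 members overlap another annotated gene, 10 of them a protein-coding gene on the same strand (Hmgb1-ps5 in Ctss, Itpa-ps1 in Ttc17 and Gpx2-ps1 in Pgm2l1, for example), and RNA of that gene cannot be told apart from theirs.

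The sequences of the sets on which the results turn show how little sets a copy apart from its parent. Each stretch is 60 bases of the parent's coding sequence with the same stretch of its copies, chosen among the stretches without a gap as the one where the copies together differ most from the parent. Capitals mark bases in a copy that differ from the parent. The sequences are GENCODE M21 transcripts, written 5′ to 3′.
The first set, bases 7 to 66 of the Hmgb1 coding sequence, is shown because all 6 copies of this chromatin gene were called at day 10.
Hmgb1: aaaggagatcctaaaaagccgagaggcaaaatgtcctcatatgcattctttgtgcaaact
Hmgb1-ps1: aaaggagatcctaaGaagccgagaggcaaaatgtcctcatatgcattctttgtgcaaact
Hmgb1-ps5: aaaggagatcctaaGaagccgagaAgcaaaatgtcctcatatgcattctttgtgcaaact
Hmgb1-ps6: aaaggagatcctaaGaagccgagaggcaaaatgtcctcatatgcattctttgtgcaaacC
Over this stretch Hmgb1-ps2, Hmgb1-ps3 and Hmgb1-ps4 have the same letters as Hmgb1-ps1, with 1 difference from the parent. Bases 118 to 177 of Pcna are shown because Pcna-ps2 had the highest called difference between vectors at day 10.
Pcna: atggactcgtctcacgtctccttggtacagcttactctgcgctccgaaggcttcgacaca
Pcna-ps2: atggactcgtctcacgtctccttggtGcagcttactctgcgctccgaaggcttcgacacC
Bases 550 to 609 of Hspb1 are shown because Hsp25-ps1, its copy, had the lowest called difference.
Hspb1: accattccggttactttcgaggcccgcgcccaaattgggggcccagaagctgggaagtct
Hsp25-ps1: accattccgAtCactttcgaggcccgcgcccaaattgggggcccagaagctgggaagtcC
The Tpt1 copies, bases 1 to 60, are the most abundant members, and 1 of them is identical to the parent over its whole aligned length.
Tpt1: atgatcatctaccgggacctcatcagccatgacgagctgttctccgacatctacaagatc
Tpt1-ps3: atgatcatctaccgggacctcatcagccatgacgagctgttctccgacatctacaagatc
Tpt1-ps5: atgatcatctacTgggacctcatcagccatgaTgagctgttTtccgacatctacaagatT
Tpt1-ps6: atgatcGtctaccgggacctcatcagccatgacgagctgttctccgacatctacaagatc
The Pgam1 copies, bases 272 to 331, set an identical copy beside a diverged one.
Pgam1: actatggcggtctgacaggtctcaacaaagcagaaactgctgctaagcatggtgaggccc
Pgam1-ps1: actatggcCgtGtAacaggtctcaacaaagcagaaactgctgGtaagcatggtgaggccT
Pgam1-ps2: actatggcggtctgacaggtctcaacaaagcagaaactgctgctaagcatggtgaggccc
The Plk1 copy, bases 63 to 122, is shown because Plk-ps1 was called at day 10 while Plk1 was not.
Plk1: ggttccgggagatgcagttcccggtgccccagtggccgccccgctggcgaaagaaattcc
Plk-ps1: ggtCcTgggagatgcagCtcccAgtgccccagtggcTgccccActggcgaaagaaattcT
The Ppp1r2 copies, bases 67 to 126, belong to the set whose 4 members were all lower with Cdk9-DN at day 10.
Ppp1r2: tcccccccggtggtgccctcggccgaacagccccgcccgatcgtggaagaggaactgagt
Ppp1r2-ps3: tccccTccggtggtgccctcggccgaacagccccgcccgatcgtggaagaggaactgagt
Ppp1r2-ps4: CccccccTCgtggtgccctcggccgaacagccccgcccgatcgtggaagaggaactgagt

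The depth of the libraries, derived from the deposited bounds of each FPKM, was 8.79 to 13.0 M fragments, and the 10 genes with the highest FPKM took 33.4% to 76.1% of the summed FPKM. The highest share was in the second control library of day 5. The median member rested on 41.2 to 63.8 implied fragments per library. Markers of other cell types moved with vector and day, and their part in the results below was not tested. The sum of the 3 of 8 simple epithelium markers listed in all 12 libraries (Krt18, Cldn3 and Cldn4) was 262 to 271 FPKM in control cells of day 10, 58.5 to 65.2 with Cdk9-DN and 2.43 to 2.95 at day 4. The sum of 2 of 10 fibroblast markers (Dcn and Lum), which was 15.7 to 17.1 at day 4, was 3.85 to 4.42 in control cells and 13.3 to 15.0 with Cdk9-DN at day 10. That of 4 of 7 pluripotency markers (Dppa5a, Utf1, Zfp42 and Tdgf1) was 0.0351 to 0.362 at day 4, 45.3 to 53.2 in control cells of day 10 and 19.57 to 19.96 with Cdk9-DN. Of 5 macrophage markers, the 1 listed in all 12 libraries (Lyz2) was at 1.84 to 2.59 at day 4, at 0.0349 to 0.133 in control cells of day 10, and listed at 0 in both Cdk9-DN libraries of that day. The 2 of 4 endothelial markers (Cdh5 and Cldn5) summed to 3.68 to 3.81 in control cells of day 10 and to 0.957 to 0.974 with Cdk9-DN. Of the erythroid markers, Hbb-b1 was listed at 0 in the 6 libraries that list it. In bulk RNA, fewer cells of a type and less RNA per cell cannot be told apart.

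Levels spanned a wide range. The mean FPKM of a member over the 12 libraries ran from 0.407 (Vmn1r-ps32) to 821 (Tpt1-ps3), with a median of 8.85, and 7 members were at 100 or more while 37 were under 5. The 7 were the 3 Tpt1 copies, Eif4a-ps4, Eif3s6-ps2, Eif5al3-ps and Pgam1-ps2. Of these, 6 are named after genes of translation or growth and 1 after a glycolytic enzyme. FPKM is scaled by length, and the deposited locus of Eif3s6-ps2 spans 219 bases against 1323 in its GENCODE M21 transcript. The member with the eighth highest mean was H3f3a-ps2, named after the gene of histone H3.3. Together the members made up 0.230% to 0.776% of the summed FPKM of a library. A value was listed in all 12 libraries for 75 members, and it was at least 1 in all 12 for 56. Another 9 members passed the level only through libraries of day 10 (Ear-ps10, Gpx2-ps1, H2-M6-ps, Hist3h2bb-ps, Hspe1-ps5, Mkrn1-ps1, Vmn1r-ps128, Vmn1r-ps32 and Xlr3d-ps), so a change with time in these is fixed by how they were chosen. Just inside the level were Vmn1r-ps128, Vmn1r-ps32 and Skiv2l-ps1, with second highest values of 1.204, 1.267 and 1.349 FPKM. Just outside were Alms1-ps2, Olfr754-ps1 and Smt3h2-ps2, at 0.955, 0.932 and 0.780.

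**Figure D1:**
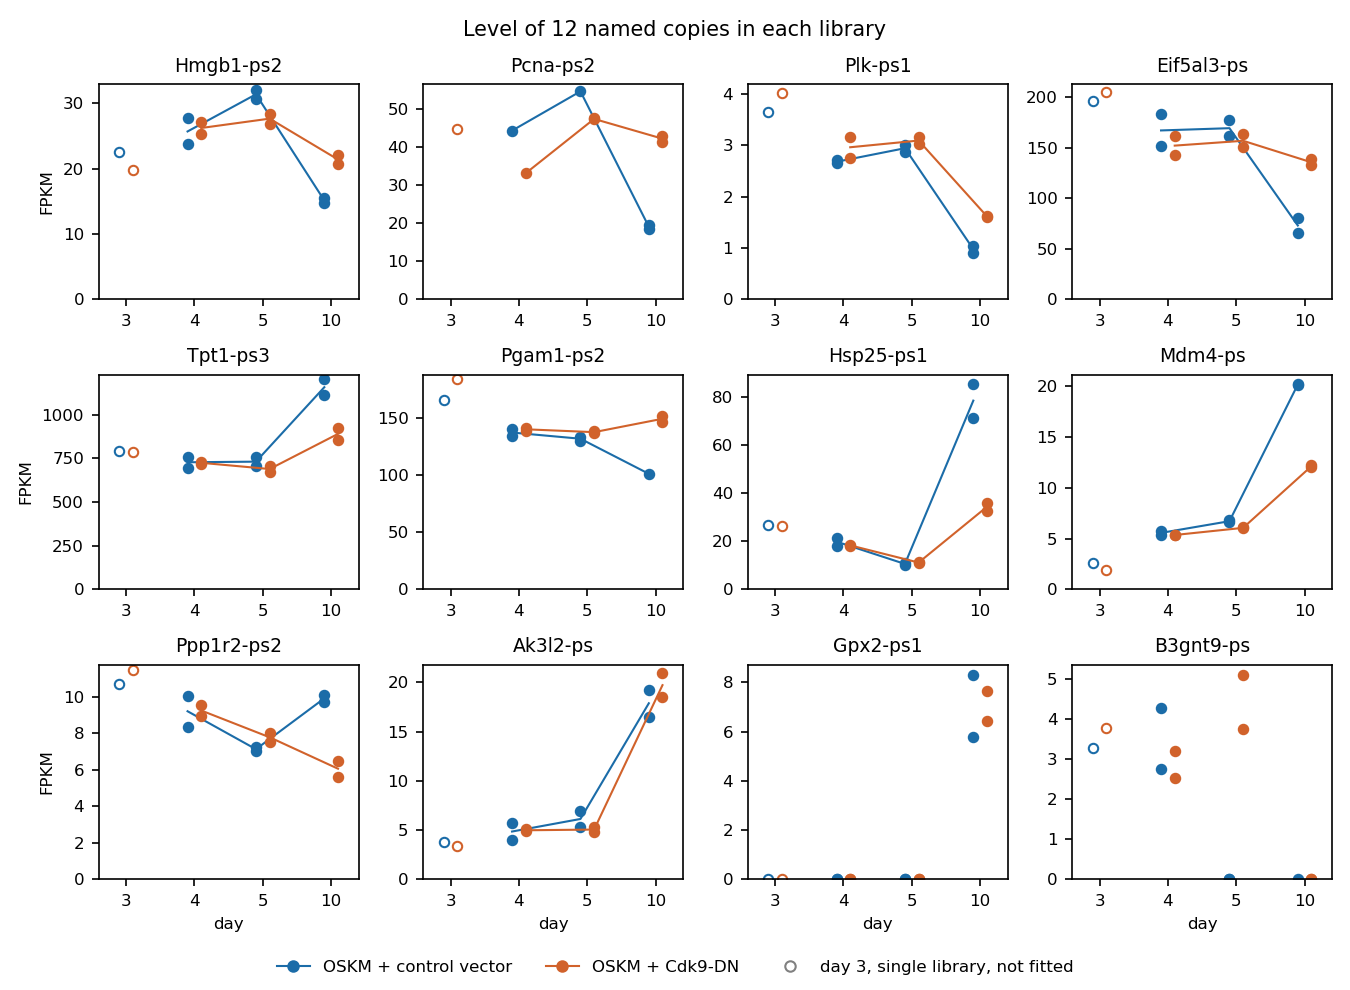
FPKM (y axis, linear from 0) of 12 members in each library by day (x axis, categories), blue for control and orange for Cdk9-DN, with lines through the group means of days 4, 5 and 10 where all values are above 0, and open circles for the single libraries of day 3. Pcna-ps2 was at 18.6 and 19.6 in control cells of day 10 against 41.4 and 43.0 with Cdk9-DN, and Hsp25-ps1 at 71.4 and 85.5 against 32.7 and 36.1.

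Copies differed between the vectors at day 10 and hardly before. Differences are Cdk9-DN minus control on the log2(FPKM + 1) scale, which understates the change of low members, with a standard error (SE) and a p-value of limma adjusted over all genes tested. A member was called when this p was under 0.05. At day 4, 0 of 96 tested members were called, with 6 at an unadjusted p under 0.05, beside 0.0336% of all genes. At day 5, 1 of 95 was called, beside 0.169% of all genes (0.0678% higher). At day 10, 21 of 93 were higher with Cdk9-DN and 18 lower, which is 41.9% beside 28.9% of all 5740 genes tested (14.5% higher and 14.4% lower), and the median difference was 0.12 beside 0.00. These 39 members go back to only 26 distinct parents, so the count holds sets of copies that can share reads. Without the members that passed only at day 10 it was 20 higher and 14 lower of 84 (40.5%). Of those left out, Vmn1r-ps32 reached 1 FPKM in no library but those of Cdk9-DN at day 10, so its call among the 21 is fixed by the choice of members. Ear-ps10 and Xlr3d-ps, also left out, passed the level only with the control libraries of day 10. Their calls among the 18 are tied to the choice of members too. In a fit of the day 10 libraries alone, 5 members were called (Pcna-ps2 higher, and Hsp25-ps1, Mdm4-ps, Tpt1-ps6 and Ap3s1-ps1 lower). With 1 library left out at a time, 20 of the 39 calls held in every fit that could be made for them. Gpr137b-ps and Pgam1-ps2 are among these 20, but could not be fitted without a day 10 library on which they rest. Under every alternative in which they could be fitted, 5 calls held, namely those on Pcna-ps2, Pgam1-ps2, Hsp25-ps1, Mdm4-ps and Tpt1-ps6.

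The difference itself changed between day 4 and day 10, by the interaction term of the same fit, in 20 of 93 tested members, 21.5% beside 15.7% of all genes. In 13 it moved toward higher levels with Cdk9-DN (7.95% of all genes) and in 7 toward lower levels (7.79%). The day 10 part of this test shares its libraries with the day 10 difference, so the 2 counts are not independent.

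Averaged over days 4, 5 and 10, 4 of 93 tested members were higher and 6 lower, beside 10.9% of all genes called (4.23% higher and 6.72% lower). The higher members were Plk-ps1 (0.19, SE 0.0443, adjusted p = 0.0406), Cdc34-ps (0.19, SE 0.0471, adjusted p = 0.0433), Pgam1-ps2 (0.22, SE 0.0241, adjusted p = 0.00526) and B3gnt9-ps (adjusted p = 0.0169). The lower members were Hsp25-ps1 (-0.40, SE 0.0626, adjusted p = 0.00988), Mdm4-ps (-0.29, SE 0.0283, adjusted p = 0.00184), Glns-ps1 (-0.26, SE 0.059, adjusted p = 0.0377), Tpt1-ps6 (-0.18, SE 0.0276, adjusted p = 0.00995), Dynlt1-ps1 (-0.17, SE 0.0313, adjusted p = 0.0174) and Ear-ps10 (adjusted p = 0.0307). Ear-ps10 passed the level only with the control libraries of day 10, so its call is tied to the choice of members. The calls on Plk-ps1, Cdc34-ps, Glns-ps1 and Ear-ps10 ended in 9 to 11 of the 12 fits without 1 library. All 4 ended without either control library of day 5, and without the second library of either vector at day 4. They also ended without the first control or the second Cdk9-DN library of day 10. Without the first control library of day 10, Pgam1-ps2 and B3gnt9-ps could not be fitted, so their calls were not tested there.

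**Figure D2:**
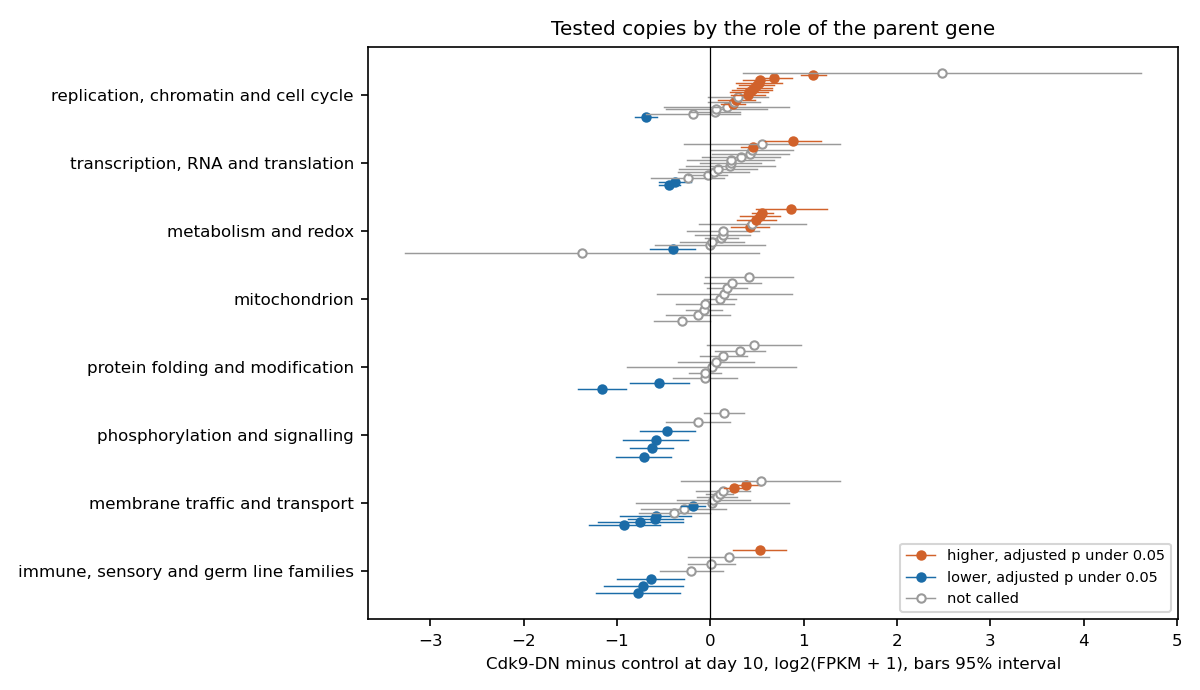
Difference at day 10, Cdk9-DN minus control in log2(FPKM + 1) (x axis), for the 93 tested members in rows by the role of the parent gene, with bars for the 95% interval and filled points for the 39 called members. Of 19 copies of replication, chromatin and cell cycle genes, 11 lay to the right of 0 and were called. All 4 called copies of phosphorylation genes lay to the left. Of all genes, 14.5% were called higher and 14.4% lower.

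Copies also changed between day 4 and day 10 within each vector. In control cells, 18 of the 85 tested members that reached the level on day 4 or 5 were higher at day 10 than at day 4 and 29 lower, which is 55.3% beside 50.0% of all genes (28.2% higher and 21.8% lower). In Cdk9-DN cells, 19 of 84 were higher and 16 lower, which is 41.7% beside 38.0% of all genes (24.5% higher and 13.5% lower), a share near that of all genes. With the members that passed only at day 10, whose rise is fixed by their choice, the counts were 25 higher and 29 lower of 94, and 26 and 16 of 93. The shares of all genes, the counts under other scalings and the counts by role below include such genes. The split depended on the scaling of the libraries. Over all tested members it was 21 higher and 36 lower in control cells with median-of-ratios scaling and 19 and 37 with quantile normalization, and in Cdk9-DN cells 15 and 24, and 13 and 23. The median of all genes for Cdk9-DN cells of day 10 against day 4 moved from 0.11 to -0.03 and -0.04 under these scalings, and that of control cells from 0.07 to -0.01 and -0.07. The changes with time below are on the deposited scale. In control cells the calls on Ap3s1-ps2, H3f3a-ps2, Eif3s6-ps1 and Rab9b-ps1 ended with median-of-ratios scaling, and those on the first 3 of these, Tpt1-ps3, Tpt1-ps6 and Vmn1r-ps32 with quantile normalization. In Cdk9-DN cells 11 and 13 of the 42 calls ended under these scalings, all of them rises. Both scalings ended those on Akt2-ps, Ldha-ps2, Mkrn1-ps1, Mrps36-ps1, Mrps36-ps2, Nsa2-ps2, Pcna-ps2, Tpt1-ps3, Tpt1-ps5 and Tpt1-ps6. Median-of-ratios scaling also ended that on H3f3a-ps1, and quantile normalization those on Ear-ps10, Eif4a-ps4 and Xlr3d-ps. The difference between vectors at day 10 and the course of control cells use the same control libraries of day 10, so they are given side by side and not set against each other.

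Between the vectors at day 10, scaling ended fewer calls. Median-of-ratios scaling ended that on H3f3a-ps1, and quantile normalization those on H3f3a-ps1, Dynlt1-ps1, H2-M6-ps and Tpt1-ps3. With a pseudocount of 0.1 in place of 1, the calls on the low members Vmn1r-ps32, Mkrn1-ps1, H2-M6-ps, Xlr3d-ps, Rab42-ps and Ear-ps10 ended (adjusted p up to 0.503). Without the level filter, where more genes are tested, those on Ppp1r2-ps3, Gpr137b-ps, H3f3a-ps1, Dynlt1-ps1 and Rab42-ps ended (adjusted p up to 0.0727).

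Copies of replication, chromatin and cell cycle genes, the role with the most members, were mostly called higher with Cdk9-DN at day 10. Of 19 tested, 11 were higher (beside 14.5% of all genes), 1 was lower (14.4%), and the median difference was 0.40. These 12 calls come from only 6 parents, with 6 copies of Hmgb1, 2 of H3f3a and 1 each of Pcna, Cdc34, Plk1 and Mdm4. In control cells 10 of the 19 fell and 3 rose between day 4 and day 10 (median -0.53), beside 21.8% and 28.2% of all genes. In Cdk9-DN cells 6 fell and 5 rose (median -0.12), beside 13.5% and 24.5%. Pcna-ps2 is a copy of the gene for the sliding clamp of DNA replication and lies on chromosome 19 at 9357869 to 9358654 (mm9, as all positions here). It was at 19.6 and 18.6 FPKM in the control libraries of day 10 and at 43.0 and 41.4 in the Cdk9-DN libraries, and the groups did not overlap. The difference was 1.11 (SE 0.0483, adjusted p = 0.00056). At day 4 it was listed in 1 library of each vector, at 44.3 in control and 33.1 with Cdk9-DN, and at day 5 at 54.6 in the 1 control library that listed it and at 47.5 and 47.3 with Cdk9-DN. It fell by 1.17 in control cells from day 4 to day 10 (adjusted p = 0.000227) and rose by 0.34 in Cdk9-DN cells (adjusted p = 0.0151). The rise ended without the first Cdk9-DN library of day 10. It also ended with median-of-ratios scaling, where it was 0.15, and with quantile normalization, where it was 0.24. Pcna is not listed in the 12 libraries, so its copy has no parent value beside it.

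The 6 copies of Hmgb1, the gene of an abundant protein that bends DNA in chromatin, moved together. They lie on chromosomes 11 (Hmgb1-ps1 and Hmgb1-ps3), X (Hmgb1-ps2), 19 (Hmgb1-ps4), 3 (Hmgb1-ps5) and 16 (Hmgb1-ps6). Hmgb1-ps2, the most abundant, was at 27.6 and 23.7 in control cells of day 4, at 31.97 and 30.69 at day 5 and at 15.5 and 14.8 at day 10. With Cdk9-DN it was at 27.2 and 25.2, at 28.4 and 26.9, and at 20.72 and 22.03. The vectors overlapped at day 4 and did not at day 10, where both control libraries were the lowest of the 12. At day 10 all 6 copies were higher with Cdk9-DN, by 0.41 (Hmgb1-ps1), 0.47 (Hmgb1-ps2), 0.53 (Hmgb1-ps3), 0.50 (Hmgb1-ps4), 0.52 (Hmgb1-ps5) and 0.45 (Hmgb1-ps6), with adjusted p from 0.00279 to 0.0129. In control cells all 6 fell, by 0.61 (Hmgb1-ps6) to 0.76 (Hmgb1-ps3 and Hmgb1-ps4), with adjusted p from 0.000171 to 0.00237. In Cdk9-DN cells Hmgb1-ps1 fell by 0.33, Hmgb1-ps2 by 0.28, Hmgb1-ps3 by 0.25 and Hmgb1-ps4 by 0.31, and the other two did not pass the test. Without the second Cdk9-DN library of day 10, the day 10 calls on Hmgb1-ps1, Hmgb1-ps5 and Hmgb1-ps6 ended, and those on Hmgb1-ps1 and Hmgb1-ps6 also without the second control library (adjusted p from 0.0503 to 0.0637). The falls in Cdk9-DN cells ended without either Cdk9-DN library of day 10 or the first of day 4 for all 4 copies, and for Hmgb1-ps3 in 10 of the fits (adjusted p from 0.0521 to 0.18). The 6 copies are no independent measurements, because 37.6% to 79.6% of their 50-base stretches are unchanged in Hmgb1.

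Other members of the role carried smaller values. Cdc34-ps, named after a ubiquitin-conjugating enzyme of the cell cycle and typed as a protein-coding gene in GENCODE M21, was at 5.17 and 5.56 in control cells of day 10 and at 9.29 and 9.09 with Cdk9-DN. These groups did not overlap, and the difference was 0.68 (SE 0.0816, adjusted p = 0.00127). It fell by 0.53 in control cells between days 4 and 10 (adjusted p = 0.00136). Plk-ps1, a copy of the gene for a kinase of mitosis (chromosome 5, 35896833 to 35898620), was at 1.05 and 0.908 against 1.60 and 1.63, again without overlap. It was higher with Cdk9-DN by 0.40 (SE 0.0768, adjusted p = 0.00851) and fell in both courses, by 0.90 in control (adjusted p = 8.26e-05) and 0.60 in Cdk9-DN cells (adjusted p = 0.000927). H3f3a-ps1 and H3f3a-ps2, copies of a gene for histone H3.3, were at 34.4 and 33.1 against 40.8 and 41.4, and at 84.6 and 82.5 against 98.8 and 99.9. Their differences of 0.28 and 0.25 (adjusted p = 0.0438 and 0.0151) were, with that of Rab11b-ps2, the 3 smallest among the higher members. Leaving out single libraries ended the call on H3f3a-ps1 in 10 of the fits (adjusted p up to 0.146) and the call on H3f3a-ps2 without the second control library or either Cdk9-DN library of day 10 (up to 0.0638). In Cdk9-DN cells both rose by 0.43 from day 4 to day 10. In control cells H3f3a-ps2 rose by 0.20 (adjusted p = 0.0184), a direction that turned to -0.061 with quantile normalization, and the call ended without the first library of day 4 or of day 10 (adjusted p up to 0.107).

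Mdm4-ps was the 1 member of this role that was lower with Cdk9-DN. Its namesake encodes an inhibitor of p53, and 62.9% of its 6514 bases (chromosome X, 124795947 to 124802460) aligned to that gene, at 94.1% identity. It was at 20.2 and 20.1 in control cells of day 10, at 12.1 and 12.2 with Cdk9-DN, and at 5.32 to 5.77 in all 4 libraries of day 4. The groups of day 10 did not overlap with each other or with day 4. The difference was -0.69 (SE 0.049, adjusted p = 0.000157), and the rise from day 4 was 1.69 in control (adjusted p = 5.47e-07) and 1.05 in Cdk9-DN cells (adjusted p = 9.65e-06). In the single libraries of day 3 it was at 2.56 in control and 1.94 with Cdk9-DN. Hist3h2bb-ps, named after a histone H2B gene, was at 2.67 and 2.97 in control and at 2.02 and 2.74 with Cdk9-DN at day 10, against at most 0.519 in the 8 libraries of days 4 and 5. It passed the level only at day 10, rose by 1.45 and 1.54 in the 2 courses (adjusted p = 0.00116 and 0.00136) and did not pass the test between vectors (-0.18, 95% interval -0.69 to 0.32). Anp32b-ps1, named after a histone chaperone gene, fell by 0.76 in control (adjusted p = 0.00519, with 1 of the 2 libraries of day 10 listed) and 0.40 in Cdk9-DN cells (adjusted p = 0.0335), where the call ended without any 1 of the 6 Cdk9-DN libraries (adjusted p up to 0.145).

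Copies of transcription, RNA and translation genes went both ways. At day 10, 2 of 15 tested were higher with Cdk9-DN and 2 lower (median 0.22), beside 14.5% and 14.4% of all genes. In control cells 5 rose and 4 fell (median -0.12), beside 28.2% and 21.8%. In Cdk9-DN cells 5 rose and 0 fell (median 0.03), beside 24.5% and 13.5%. The Tpt1 copies, from a gene whose protein is tied to growth and whose messenger RNA is abundant in dividing cells, were the highest members of all. Tpt1-ps3 (chromosome 6, 99827741 to 99828427) was at 1112 and 1204 in control cells of day 10, at 857 and 925 with Cdk9-DN, and between 675 and 759.9 in the 8 libraries of days 4 and 5. The day 10 groups did not overlap, and all 4 libraries of day 10 lay above all 8 earlier ones. It was lower with Cdk9-DN by 0.38 at day 10 (-0.38, SE 0.0723, adjusted p = 0.00871), a call that ended without the first Cdk9-DN library (adjusted p = 0.0517) and with quantile normalization (adjusted p = 0.0694). Tpt1-ps6 (chromosome X, 98963874 to 98964396) was at 429 and 437 against 316 and 321, and was lower with Cdk9-DN (-0.44, SE 0.0479, adjusted p = 0.000833). Tpt1-ps5 was at 289 and 417 against 281 and 306, where the groups overlapped, and it did not pass the test (-0.24, 95% interval -0.64 to 0.15). In control cells Tpt1-ps3 rose by 0.67, Tpt1-ps5 by 0.93 and Tpt1-ps6 by 0.56, with adjusted p from 7.96e-05 to 0.00286. With quantile normalization the rises of Tpt1-ps3 and Tpt1-ps6 were 0.25 and 0.17 and no longer passed the test (adjusted p = 0.178 and 0.0988). In Cdk9-DN cells they rose by 0.30, 0.70 and 0.18 (adjusted p from 0.0148 to 0.0206). There the direction of Tpt1-ps6 turned to -0.0098 with median-of-ratios scaling and -0.050 with quantile normalization, and that of Tpt1-ps3 to -0.14 with the latter. These rises in Cdk9-DN cells also ended without single libraries of day 4 or day 10, the first of day 4 and the second of day 10 in all 3 copies (adjusted p up to 0.0951). Tpt1 is not listed in the 12 libraries.

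Eif5al3-ps matched Eif5a, the gene of a translation factor that carries hypusine, at 97.2% identity (chromosome 5, 90561254 to 90561700). It was at 80.6 and 65.6 in control cells of day 10, at 138 and 133 with Cdk9-DN, and at 143 to 183 in the 8 libraries of days 4 and 5. Both control libraries of day 10 were below all 10 others. The difference at day 10 was 0.89 (SE 0.128, adjusted p = 0.00277), and the change in control cells was -1.18 (adjusted p = 0.000245). Eif4a-ps4, named after an RNA helicase of translation initiation, was at 222 and 239 in control and at 317 and 313 with Cdk9-DN at day 10, without overlap (0.45, SE 0.0501, adjusted p = 0.00303). It rose by 0.38 in Cdk9-DN cells (adjusted p = 0.00306), a rise that was 0.11 with quantile normalization and no longer passed the test (adjusted p = 0.361). Eif3s6-ps2, named after a subunit gene of initiation factor 3, was at 171 and 186 against 174 and 193, and these groups overlapped (0.04, 95% interval -0.34 to 0.42). Eif3s6-ps1 rose by 0.33 in control cells (adjusted p = 0.0175). Nsa2-ps2, from a gene of ribosome assembly, rose by 0.67 in control and 0.62 in Cdk9-DN cells (adjusted p = 0.0163 and 0.029). In control cells Npm3-ps1 fell by 0.70 (adjusted p = 0.0136), Pabpc1l2b-ps by 0.66 (adjusted p = 0.0304) and Cbfa2t2-ps1, from a corepressor gene, by 0.58 (adjusted p = 0.029). These smaller calls ended without single control libraries. For Nsa2-ps2 and Npm3-ps1 it was the second of day 4 or of day 10 (adjusted p up to 0.0917 and 0.061), and for Cbfa2t2-ps1 the second of day 4 or the first of day 10 (up to 0.156). For Eif3s6-ps1 it was any but the second of day 4 (up to 0.0945), and for Pabpc1l2b-ps any of the 4 (up to 0.141). The rise of Nsa2-ps2 in Cdk9-DN cells ended without any 1 of its 4 libraries (up to 0.12). Hnrnpa1l2-ps was at 35.6 in the first Cdk9-DN library of day 10 and between 12.9 and 17.9 in the 10 other libraries of days 4, 5 and 10 that listed it, and its difference did not pass the test (0.55, 95% interval -0.28 to 1.39).

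Copies of metabolic and redox genes included sets that were higher with Cdk9-DN at day 10 and fell in control cells. Of 13 tested, 5 were higher and 1 lower (median 0.14), beside 14.5% and 14.4% of all genes. In control cells 9 of 14 fell and 4 rose (median -0.43), beside 21.8% and 28.2%. In Cdk9-DN cells 4 of 13 fell and 4 rose, beside 13.5% and 24.5%. Pgam1-ps2, identical to the coding sequence of a phosphoglycerate mutase of glycolysis (chromosome 7, 28254790 to 28255554), was at 101 in the 1 control library of day 10 that listed it and at 152 and 147 with Cdk9-DN. It was higher by 0.56 (SE 0.0473, adjusted p = 0.000636) and fell by 0.44 in control cells (adjusted p = 0.00049). Both values rest on that 1 control library. Pgam1-ps1, at 94.4% identity, was at 20.9 and 23.2 against 29.0 and 30.7, without overlap (0.42, SE 0.0857, adjusted p = 0.0109). Its call ended without the first control or the second Cdk9-DN library of day 10 (adjusted p = 0.0583 and 0.0586 in these fits). It fell by 0.33 in control cells (adjusted p = 0.0158), a call that ended without the second library of day 4 or the first of day 10 (adjusted p up to 0.0877).

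The 3 copies of Amd1, the gene of a decarboxylase of polyamine synthesis, fell in both courses. Amd-ps3 was at 10.9 and 10.4 in control cells of day 4 and at 5.23 and 4.83 at day 10, and with Cdk9-DN at 10.55 and 10.04 and then at 7.02 and 8.50. The vectors did not overlap at day 10. In control cells Amd-ps3 fell by 0.96, Amd-ps4 by 0.93 and Amd-ps1 by 0.42 (adjusted p = 0.000131, 0.000144 and 0.0288), and in Cdk9-DN cells by 0.37, 0.31 and 0.38 (adjusted p from 0.0157 to 0.0493). The falls in Cdk9-DN cells ended without the first Cdk9-DN library of day 4 or of day 10 for all 3, and for Amd-ps1 in 9 of the fits (adjusted p up to 0.227), as did the fall of Amd-ps1 in control cells without 3 of its 4 libraries (up to 0.143). Between vectors at day 10, Amd-ps3 was higher with Cdk9-DN by 0.53 (SE 0.0904, adjusted p = 0.00541) and Amd-ps4 by 0.49 (SE 0.0903, adjusted p = 0.00743). Amd-ps1, the most diverged of the 3, did not pass the test (0.13, 95% interval -0.17 to 0.43). Itpa-ps1, from the gene of an enzyme that clears inosine triphosphate, was at 5.71 and 4.22 in control and at 10.3 and 9.35 with Cdk9-DN at day 10, and all 8 libraries of days 4 and 5 were at 9.74 to 13.1. Its difference was 0.87 (SE 0.162, adjusted p = 0.0081), and it fell by 0.91 in control cells (adjusted p = 0.00286). The 1 lower member was Glns-ps1, named after glutamine synthetase, at 8.97 and 9.73 against 7.04 and 6.63 (-0.40, SE 0.102, adjusted p = 0.0252). The call ended without any 1 of the 4 libraries of day 10 (adjusted p up to 0.109), and Glns-ps1 rose in both courses, by 0.91 (adjusted p = 0.000281) and 0.73 (adjusted p = 0.00141).

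Several metabolic copies changed with time and did not pass the test between vectors. Ak3l2-ps, at 99.6% identity to Ak4, a mitochondrial adenylate kinase gene, was at 4.05 to 5.68 in the 4 libraries of day 4, at 16.5 and 19.2 in control cells of day 10 and at 18.5 and 20.9 with Cdk9-DN. All 4 libraries of day 10 were above all earlier ones. It rose by 1.70 in control (adjusted p = 0.000138) and 1.79 in Cdk9-DN cells (adjusted p = 0.000188), and the difference at day 10 was 0.14 (95% interval -0.25 to 0.52). Gpx2-ps1, a copy of the glutathione peroxidase gene of the gut lining, was listed at 0 in all 10 libraries of days 3, 4 and 5. At day 10 it was at 8.31 and 5.76 in control and at 6.45 and 7.64 with Cdk9-DN, where the groups overlapped. Its parent Gpx2 was at 8.78, 7.95, 8.02 and 7.61 in the same 4 libraries and at most 0.116 in the 8 libraries of days 4 and 5. Gpx2-ps1 passed the level only at day 10, and both courses were called (adjusted p = 6.2e-06 and 1.16e-05). B3gnt9-ps, typed as the protein-coding glycosyltransferase gene B3gnt9 in GENCODE M21 (chromosome 8, 107776538 to 107779053), was listed at 0 in both control libraries of day 5 and at 5.11 and 3.76 with Cdk9-DN. It was the 1 member called at day 5 (adjusted p = 0.0123), and the call ended without either control library or the first Cdk9-DN library of that day (adjusted p from 0.0654 to 0.0736). At day 4 it was at 2.76 and 4.28 in control and at 3.20 and 2.54 with Cdk9-DN, and at day 10 it was listed at 0 in the 3 libraries that list it. Both courses were called lower (adjusted p = 0.000569 and 0.000612). It overlaps D230025D16Rik on the opposite strand, and whether the counting used strand is not given in the sources used here.

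Among the remaining metabolic members, Gstm2-ps1 was listed at 0 in 4 of the 8 libraries of days 4 and 5 and at most at 2.82 in the others, and was at 7.78 and 6.28 in control cells of day 10 against 1.61 and 2.63 with Cdk9-DN. The vectors did not overlap at day 10, but the difference did not pass the test (-1.38, 95% interval -3.27 to 0.52), and the rise in control cells (adjusted p = 0.03) ended without any 1 of its 4 libraries (adjusted p up to 0.132). Spr-ps1, from a gene of tetrahydrobiopterin synthesis, fell by 0.84 in control cells (adjusted p = 0.028), where only the first of the 2 libraries of day 4 lists it. Ldha-ps2, from lactate dehydrogenase A, rose by 0.26 in Cdk9-DN cells (adjusted p = 0.0304). The call ended without the first library of day 10 or the second of day 4. The rise was 0.069 with median-of-ratios scaling and 0.15 with quantile normalization (adjusted p = 0.529 and 0.289).

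No copy of a mitochondrial gene was called between the vectors at day 10 (0 of 9 tested by limma, median 0.11), beside 28.9% of all genes. With time, Mrpl23-ps1, identical to a gene of the mitochondrial ribosome over its aligned length, rose by 0.51 in control (adjusted p = 0.00185) and 0.68 in Cdk9-DN cells (adjusted p = 0.000763). Mrps36-ps2 rose by 0.52 (adjusted p = 0.0108) and 0.46 (adjusted p = 0.0254), and Mrps36-ps1 by 0.42 in Cdk9-DN cells (adjusted p = 0.0437). Vdac3-ps1, from a porin gene of the outer membrane, fell by 0.26 (adjusted p = 0.0385) and 0.33 (adjusted p = 0.00754), the first of these with 1 control library listed at day 4 and 1 at day 10. Apoo-ps, from a gene of cristae organization, fell by 0.97 in control cells (adjusted p = 0.0174), with 1 of the 2 libraries of day 4 listed, a call that ended without either control library of day 10 (adjusted p = 0.0569 and 0.0637 in these fits). The call on Mrps36-ps2 ended without the second control library of day 4 (adjusted p = 0.0646) and, in Cdk9-DN cells, without 3 of the 4 libraries (up to 0.133). That on Mrps36-ps1 ended in 10 of the fits without 1 library (up to 0.188), and that on Vdac3-ps1 in control cells in 6 (up to 0.0684).

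Hsp25-ps1 had the lowest called difference of all members. It is a copy of Hspb1, the gene of a small heat shock protein, at 99.4% identity (chromosome 13, 45173867 to 45174496). It was at 71.4 and 85.5 in control cells of day 10, at 36.1 and 32.7 with Cdk9-DN, at 18.01 to 21.53 in the 4 libraries of day 4 and at 10.1 to 11.3 in those of day 5. The control libraries of day 10 were the highest of the 12, and the Cdk9-DN libraries of that day came next, with no overlap. The difference was -1.16 (SE 0.108, adjusted p = 0.00045). It rose by 1.93 in control (adjusted p = 1.15e-05) and 0.87 in Cdk9-DN cells (adjusted p = 0.000801). In the folding and modification role 0 of 9 tested copies were higher with Cdk9-DN at day 10 and 2 lower (median 0.02). Of all genes, 14.5% were called higher there and 14.4% lower. The second was Mkrn1-ps1, from a ubiquitin ligase gene, at 3.06 and 2.76 against 1.40 and 1.97 (-0.55, SE 0.134, adjusted p = 0.0218), whose call ended without the first control or first Cdk9-DN library of day 10 (adjusted p up to 0.101). It rose by 1.13 in control (adjusted p = 0.000385) and 0.50 in Cdk9-DN cells (adjusted p = 0.0224). Mkrn1-ps1 passed the level only at day 10, so both rises are fixed by the choice of members. The second of these rises ended without 3 of the 4 libraries. Hspa9-ps1 fell by 0.38 in control cells (adjusted p = 0.0289), which ended without 3 of the 4 libraries (up to 0.134). The 3 copies of Hspe1, the gene of the mitochondrial cochaperonin, were not called in any of the 7 comparisons.

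All 4 copies of Ppp1r2, the gene of inhibitor 2 of protein phosphatase 1, were lower with Cdk9-DN at day 10. Of all genes, 14.4% were called lower there. Ppp1r2-ps2 and Ppp1r2-ps6 had no aligned sequence and were assigned to Ppp1r2 by name alone. Ppp1r2-ps2 (chromosome 6, 90855693 to 90856501) was at 9.71 and 10.1 in control and at 5.61 and 6.50 with Cdk9-DN, and the groups did not overlap. At day 4 they did overlap, at 10.04 and 8.35 against 8.94 and 9.53. The differences at day 10 were -0.72 for Ppp1r2-ps4 (SE 0.125, adjusted p = 0.00602), -0.63 for Ppp1r2-ps2 (SE 0.0962, adjusted p = 0.0035), -0.59 for Ppp1r2-ps6 (SE 0.147, adjusted p = 0.0239) and -0.46 for Ppp1r2-ps3 (SE 0.125, adjusted p = 0.0318). None of the 4 was called in control cells between day 4 and day 10 (differences from 0.04 to 0.21). In Cdk9-DN cells Ppp1r2-ps4 fell by 0.73, Ppp1r2-ps6 by 0.62 and Ppp1r2-ps2 by 0.54 (adjusted p from 0.00327 to 0.0145). Ppp1r2 itself was at 48.0 and 52.2 in control cells of day 10 and at 30.3 in the 1 Cdk9-DN library that listed it (-0.70, adjusted p = 0.0273). The call on Ppp1r2-ps6 ended without the first control or first Cdk9-DN library of day 10 (adjusted p up to 0.122). That on Ppp1r2-ps3 ended in 5 of the fits without 1 library (up to 0.153). The other 2 members of this role, named after a casein kinase 2 subunit and after Akt2, were not called between vectors, and Akt2-ps rose by 0.34 in Cdk9-DN cells (adjusted p = 0.0133). That rise ended without 3 of the 4 Cdk9-DN libraries (adjusted p up to 0.0717), as did the fall of Ppp1r2-ps6 (up to 0.0836).

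**Figure D3:**
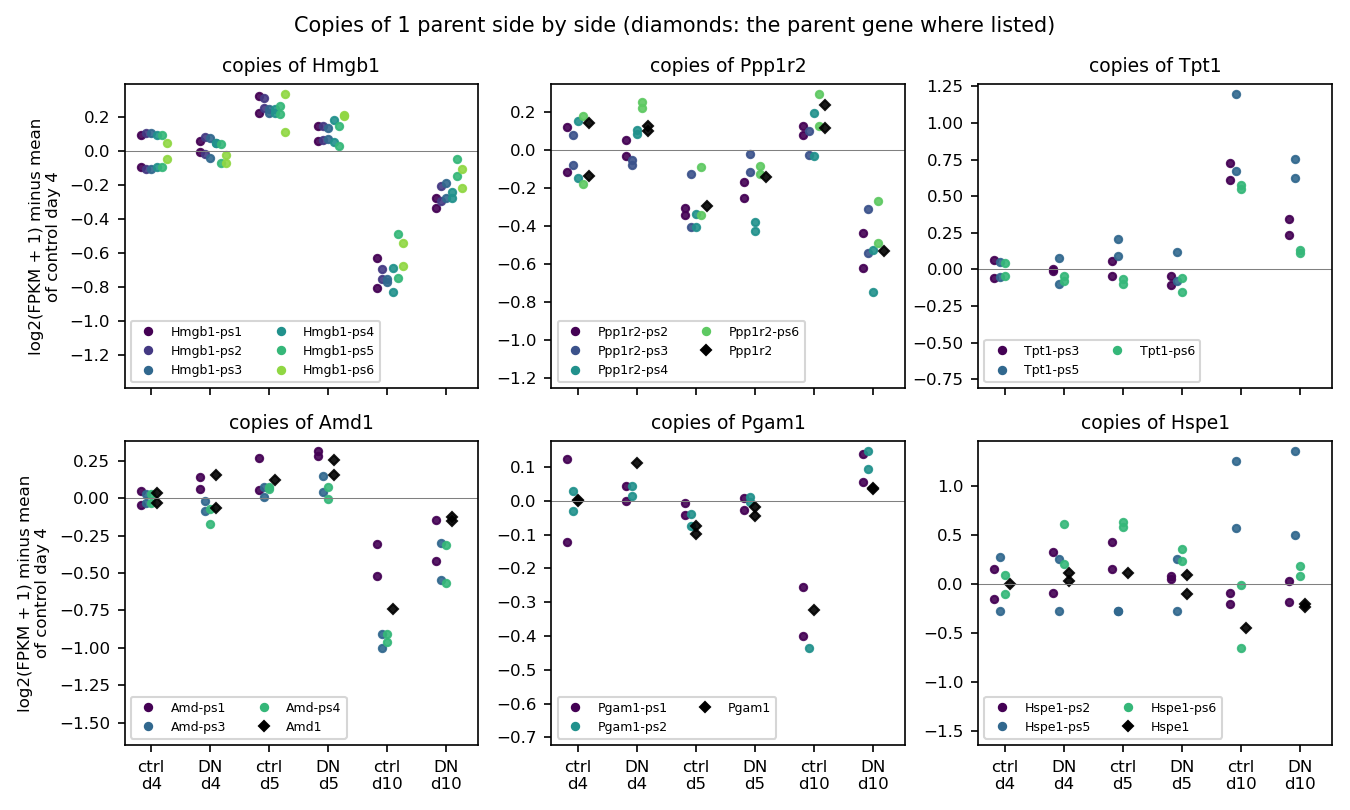
Each panel shows the copies of 1 parent as log2(FPKM + 1) minus the mean of the control libraries of day 4 (y axis) in the 6 groups (x axis, ctrl for control and DN for Cdk9-DN, d for day), 1 point per library, with black diamonds for the parent where it is listed. The 6 Hmgb1 copies lay below 0 in all libraries of day 10 and lower in control, the 4 Ppp1r2 copies lay below 0 with Cdk9-DN at day 10, and the Hspe1 copies did not follow one another.

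Copies of traffic and transport genes had 2 of 15 tested higher and 5 lower with Cdk9-DN at day 10 (median 0.02). Of all genes, 14.5% were called higher there and 14.4% lower. Ap3s1-ps1 and Ap3s1-ps2, from the gene of an adaptor subunit of lysosomal sorting, were at 14.7 and 15.7 against 8.82 and 8.42, and at 8.35 and 8.62 against 4.82 and 5.84, both without overlap. Their differences were -0.75 (SE 0.193, adjusted p = 0.0257) and -0.59 (SE 0.121, adjusted p = 0.0156). The first call ended without any 1 of the 4 libraries of day 10 and the second without 3 of them (adjusted p up to 0.101 and 0.0745), while Ap3s1-ps1 was called in the fit of day 10 alone. Ap3s1-ps2 rose by 0.44 in control cells (adjusted p = 0.0496), with 1 library of day 4 listed, and this call ended in 7 of the fits (up to 0.136). Dynlt1-ps1, from a dynein light chain gene, was at 85.7 and 84.9 against 75.0 and 74.7 (-0.19, SE 0.0542, adjusted p = 0.0402), and this call ended in 8 of the fits without 1 library (adjusted p up to 0.129). It rose by 0.84 in control (adjusted p = 2.25e-05) and 0.77 in Cdk9-DN cells (adjusted p = 5.69e-05). Rab42-ps, which GENCODE M21 types as a protein-coding GTPase gene, was at 2.22 and 1.59 against 0.999 and 0.855 at day 10, and the order was the opposite at day 4, at 0.324 and 0.392 against 1.24 and 1.47. It was lower with Cdk9-DN at day 10 (-0.58, SE 0.157, adjusted p = 0.0368), a call that ended in 7 of the fits without 1 library (adjusted p up to 0.147), and it rose by 1.09 in control cells (adjusted p = 0.00169). Gpr137b-ps was listed in 1 library of each vector at day 10, at 3.91 in control and 1.60 with Cdk9-DN, and its calls (-0.92 between vectors, adjusted p = 0.0213, and 0.85 in control cells, adjusted p = 0.0141) rest on these.

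The 2 higher members of the role were Rab11b-ps2, from a GTPase gene of recycling endosomes, at 22.5 and 22.6 against 27.42 and 26.98 (0.26, SE 0.0481, adjusted p = 0.00808), and Nutf2-ps1, identical to a gene of nuclear import, at 27.3 and 24.4 against 32.7 and 35.4 (0.38, SE 0.0644, adjusted p = 0.00759). Both pairs of groups did not overlap. Rab11b-ps2 rose by 0.33 in Cdk9-DN cells (adjusted p = 0.00167), and Nutf2-ps1 fell by 0.42 in control cells (adjusted p = 0.0021). Cd63-ps, from a tetraspanin gene of late endosomes, fell by 0.69 in control (adjusted p = 0.000187, with 1 library of day 10 listed) and 0.66 in Cdk9-DN cells (adjusted p = 0.000167). Orai2-ps, from a calcium channel gene, fell by 0.61 and 0.69 (adjusted p = 0.0188 and 0.0149). Rab9b-ps1, whose closest gene by sequence is Rab9, rose by 0.58 in control cells (adjusted p = 0.0201). These calls ended without the second control library of day 4 or the first of day 10 for Orai2-ps (adjusted p up to 0.103), the first Cdk9-DN library of day 4 or the second of day 10 (up to 0.0813), and 3 of the 4 control libraries for Rab9b-ps1 (up to 0.111). Slc39a1-ps, from a zinc transporter gene, was at 14.2 to 17.2 in all 12 libraries and was not called in any comparison.

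The immune, sensory and germ line families held low members, and the 4 called at day 10 are typed as unprocessed pseudogenes by GENCODE M21 and passed the level only at day 10. Of the 7 tested, 3 were lower with Cdk9-DN and 1 higher (median -0.20), beside 14.4% and 14.5% of all genes. Ear-ps10, of the eosinophil ribonuclease family, was at 2.42 and 1.73 against 1.09 and 0.532 (-0.77, SE 0.19, adjusted p = 0.0223). H2-M6-ps, of the class I histocompatibility family, was listed in 1 library of each vector at day 10, at 4.27 and 2.38 (-0.64, SE 0.14, adjusted p = 0.0255), so its value rests on these. Xlr3d-ps, of a family on chromosome X, was at 2.33 and 1.54 against 0.549 and 1.01 (-0.72, SE 0.175, adjusted p = 0.0269). Vmn1r-ps32, of the vomeronasal receptors, was higher with Cdk9-DN, at 0.540 and 0.687 against 1.39 and 1.27 (0.53, SE 0.122, adjusted p = 0.0178). It reached 1 FPKM only in these 2 Cdk9-DN libraries, so its difference between vectors and its rise in Cdk9-DN cells are fixed by the choice of members. Ear-ps10 and Xlr3d-ps reached 1 FPKM in both control libraries of day 10 and in 1 Cdk9-DN library. They passed the level only with the control libraries, so their lower values with Cdk9-DN are tied to the choice of members too. All 4 were called higher at day 10 than at day 4 in both courses. In control cells the rise was 0.65 for Vmn1r-ps32, which stayed under 1 FPKM there, and 1.10 to 2.21 for the other three, whose rise is fixed by the choice of members. Leaving out 1 library ended each of these day 10 calls. It was the first control library for Ear-ps10, Xlr3d-ps and Vmn1r-ps32, the second Cdk9-DN library for Ear-ps10 and the first for the other two, with adjusted p from 0.0740 to 0.110. For H2-M6-ps it was either Cdk9-DN library of day 5 (adjusted p up to 0.0524). In Cdk9-DN cells the rises of Ear-ps10 and Xlr3d-ps ended without 3 of the 4 libraries (up to 0.0585 and 0.115).

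Beside their parents, copies stood at relative levels from a median of 0.160% (Hspe1-ps5) to one of 120% (Eif3s6-ps2), taken over the libraries where the parent was at 1 FPKM or more. A parent was listed in at least 1 of the 12 libraries for 35 members, from 25 parents, and in all 12 for 6 parents, so most members have no parent value. Per length, Pgam1-ps2 stood at 70.7% to 82.7% of Pgam1 over the 10 libraries that list both, and the diverged Pgam1-ps1 at 14.2% to 17.0%. Slc39a1-ps stood at 23.8% to 28.8% of its parent, Vdac3-ps1 at 24.8% to 29.8%, Ppp1r2-ps2 at 18.5% to 21.4%, and Amd-ps3, Amd-ps4 and Amd-ps1 at 34.8% to 47.4%, 22.4% to 33.3% and 4.34% to 8.41%. Eif3s6-ps2 was the only member above its parent in all 6 libraries that list both, at 112% to 151% of Eif3e. Its deposited locus spans 219 bases and its GENCODE M21 transcript 1323. The part of this short length in its FPKM was not tested. At the low end, Hspe1-ps5 was listed at 0 in some of the 9 libraries and stood at most at 0.836% of Hspe1. Marcksl1-ps4 stood at 1.14% to 4.66% of Marcksl1, Nsa2-ps2 at 2.44% to 5.57% of Nsa2, and Plk-ps1 at 5.01% to 8.20% of Plk1. Hist3h2bb-ps ran from 0% to 40.9% of Hist3h2ba over 6 libraries, and Gpx2-ps1 stood at 72.5% to 100.4% of Gpx2 in the 4 of day 10. The deposited locus of Gpx2-ps1 spans 303 bases and its GENCODE M21 transcript 571, and the part of this in its FPKM was not tested either. Between the lowest and highest copies lay Eif3s6-ps1 at 14.8% to 18.5% of Eif3e, Ppp1r2-ps4 at 15.6% to 20.1%, Ppp1r2-ps6 at 7.84% to 10.2% and Ppp1r2-ps3 at 5.71% to 7.49% of Ppp1r2, and Apoo-ps at 38.5% to 50.5% of Apoo. Atp5l-ps1, named after an ATP synthase subunit gene, stood at 12.5% to 15.0%, Spr-ps1 at 10.04% to 15.17%, Fam136b-ps at 5.31% to 7.70%, Hspe1-ps2 at 8.04% to 11.4% and Hspe1-ps6 at 6.66% to 11.4% of their parents. In the few libraries that list the parent, Cd63-ps stood at 19.95% to 21.65% in 4, Itpa-ps1 at 10.9% to 17.9% in 4, Nutf2-ps1 at 92.9% to 115% in 3, and Ap3s1-ps1, Ap3s1-ps2 and Anp32b-ps1 at 25.5% to 34.8%, 16.94% to 18.02% and 17.5% to 17.6% in 2. Ccnd3-ps, named after a D-type cyclin gene, stood at 4.48% in the 1 library that lists Ccnd3. The order of the 3 Amd1 copies is that of their identity to Amd1, at 99.9%, 99.5% and 96.7%, which is a description of 3 rows that can share reads.

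**Figure D4:**
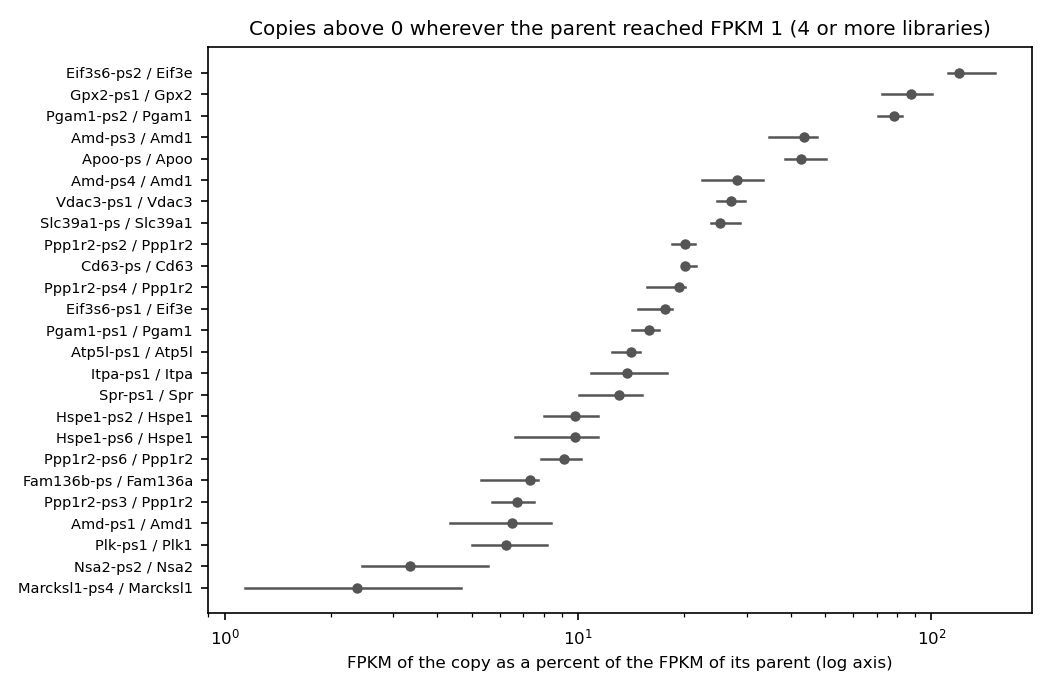
FPKM of a copy as a percent of the FPKM of its parent in the same library (x axis, log scale), for the copies above 0 in every library where the parent reached 1 FPKM, with at least 4 such libraries, as the median (point) and the lowest and highest library (line). Eif3s6-ps2 lay at 112% to 151%, Pgam1-ps2 at 70.7% to 82.7% and Marcksl1-ps4 at 1.14% to 4.66%.

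Copies and parents that were both called had the same direction. At day 10, both could be tested in 21 pairs from 13 parents. In 8 pairs both were called, in the same direction in all 8, in 1 pair the copy alone, in 2 the parent alone and in 10 neither. The 8 pairs come from Amd1 (Amd-ps3 and Amd-ps4), Pgam1 (both copies) and Ppp1r2 (4 copies), so they stand for 3 parents. Of the Ppp1r2 copies, Ppp1r2-ps2 and Ppp1r2-ps6 are paired with it by name alone. Amd1 was higher with Cdk9-DN by 0.60 (adjusted p = 0.0138) and Pgam1 by 0.36 (adjusted p = 0.0035), beside 0.53, 0.49, 0.56 and 0.42 for their copies. Each of these parents is listed in 1 control library of day 10, Amd1 at 13.1 against 20.2 and 20.5, and Pgam1 at 143 against 184 and 184. The copy called alone was Plk-ps1, at 0.40 beside 0.17 for Plk1 (adjusted p = 0.170), and Plk1 was at 19.0 and 18.1 against 22.3 and 19.9. The parents called alone were Amd1 beside Amd-ps1 and Fam136a (0.51, adjusted p = 0.0459) beside Fam136b-ps (0.15). Single libraries ended calls on parents too. That on Ppp1r2, which 4 of the 8 pairs share, ended without either control library of day 10, without either Cdk9-DN library of day 4 and with the replicate block (adjusted p up to 0.0921). That on Fam136a ended under both other scalings, without the level filter, and without either control library of day 4 or the first Cdk9-DN library of day 10 (up to 0.0721). That on Amd1 ended without either Cdk9-DN library of day 10 (up to 0.0569). The difference between copy and parent was not tested. In control cells between days 4 and 10, 11 of 21 pairs were both called and in the same direction, among them Gpx2-ps1 and Hist3h2bb-ps, which passed the level only at day 10, 4 had the parent alone and 6 neither. Plk1 fell by 1.25 beside 0.90 for its copy, Spr by 1.12 beside 0.84, and Amd1 by 0.74 beside 0.96 for Amd-ps3. Hist3h2ba rose by 2.79 beside 1.45 for Hist3h2bb-ps. The 3 Hspe1 copies and Marcksl1-ps4 were the pairs with the parent alone called (Hspe1 -0.45, adjusted p = 0.0342, and Marcksl1 -0.55, adjusted p = 0.000941). The call on Hspe1 ended without any 1 of the Cdk9-DN libraries of days 4 and 10 and without the level filter (adjusted p up to 0.0748), and that on Nsa2, called with its copy, with quantile normalization (0.241). Shared reads would also give a copy and its parent the same direction, and their part was not tested.

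**Figure D5:**
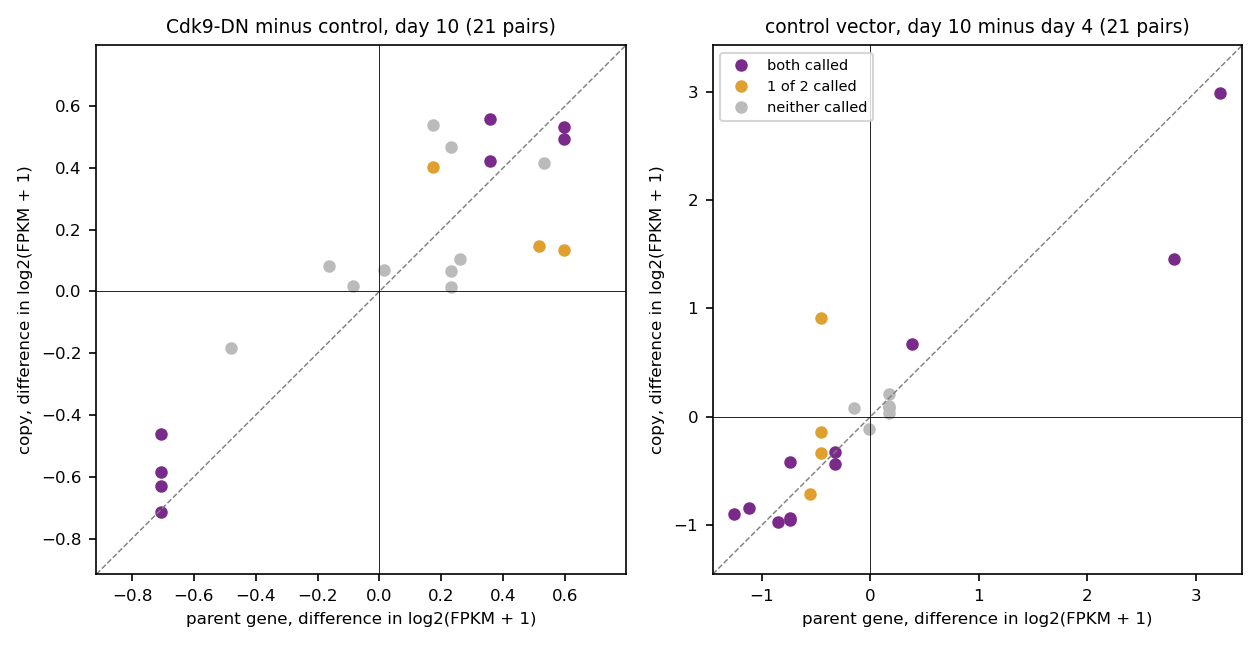
Difference of the copy (y axis) against that of its parent (x axis), both in log2(FPKM + 1), for Cdk9-DN minus control at day 10 (left) and for day 10 minus day 4 in control cells (right), 21 pairs each, coloured by how many of the 2 were called, with the line of equal differences dashed. The 8 pairs with both called on the left lie in the quadrants of equal sign, and the pair farthest right in the right panel is Gpx2 with Gpx2-ps1, both listed at 0 in the control libraries of day 4.

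Likeness of pattern was computed for the 3 most abundant members listed in all 12 libraries, against 3491 genes. Tpt1-ps3 was most like Gm8213, Gm5908 and Tmem30b (Pearson r from 0.985 to 0.989 on log2(FPKM + 1)). Tpt1-ps6 was most like Emb, Kcmf1 and Nfkbia (0.989 to 0.991), and Tpt1-ps5 most like Gbp7, Gm10260 and Gm4978 (0.961 to 0.969). These are descriptions over 12 libraries of 6 groups, whose points share vector and day.

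For comparison, of 119 tested pseudogenes named after ribosomal protein genes, 0 were called higher with Cdk9-DN at day 10 and 48 lower (40.3%, beside 14.4% of all genes), against 21 higher and 18 lower here. Their differences ran from -0.75 to 0.56 with a median of -0.22, so those that did not pass the test lay on both sides of 0. Among 1410 other processed pseudogenes tested, 189 were higher and 193 lower (27.1%, median 0.01). Of the 70 tested members typed as processed pseudogenes, 16 were higher and 10 lower (37.1%, median 0.14). Copies are not independent of one another, so the difference between these shares was not tested.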

How the data were processed

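Reads were processed with CASAVA 1.8.2, TopHat2 2.0.10 and Cufflinks 2.2.1, per the submitters' processing notes, and the authors deposited FPKM values per gene with their bounds. How reads that match several loci were shared, and whether strand was used, is not given in the sources used here. Positions are mm9. Identifiers with several entries (16) were summed, and 1 entry marked as failed was left out. Genes were tested with limma 3.58.1 (R 4.3.3) on log2(FPKM + 1), without further scaling, in 1 fit of the 12 libraries of days 4, 5 and 10, over genes with FPKM of at least 1 in at least 2 libraries, with Benjamini-Hochberg adjustment over all genes tested and a threshold of 0.05. A missing value was left out of the fit and not imputed, and a gene was tested in a contrast where each group had a value. Closest genes came from blastn 2.17.0 against GENCODE M21 coding transcripts, and for 8 members without such a match the parent came from the name alone. The text names every member called in any contrast, the 8 members of highest mean level and members whose parent is listed, except for 1 called member and 1 marker gene that are not reported here. The members, the roles and the marker lists were chosen with earlier results of these data known. The script was tested on simulated data. Alternatives were other pseudocounts, filters, scalings, a replicate block, separate fits, adding day 3 and leaving out 1 library.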

Additional observations from a re-analysis of the deposited data

Results flagged for a closer look

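For 20 of 93 tested members the difference between Cdk9-DN and control at day 10 differed from that at day 4, by the interaction term of limma with adjustment over all genes. Among copies of replication, chromatin and cell cycle genes, the day 10 difference minus the day 4 difference was 1.51 for Pcna-ps2 (adjusted p = 0.00199), 0.77 for Cdc34-ps, 0.51 for Hmgb1-ps3, 0.49 for Hmgb1-ps6, 0.45 for Hmgb1-ps4, 0.44 for Hmgb1-ps2 and -0.64 for Mdm4-ps (adjusted p = 0.00163). Among copies of translation genes it was 1.02 for Eif5al3-ps (adjusted p = 0.0112), 0.50 for Eif4a-ps4 and -0.38 for Tpt1-ps6. The metabolic copies Amd-ps4, Amd-ps3 and Pgam1-ps2 had 0.62, 0.58 and 0.53. The Ppp1r2 copies had -0.82 (Ppp1r2-ps6), -0.81 (Ppp1r2-ps4) and -0.64 (Ppp1r2-ps2), and Hsp25-ps1 had -1.06 (adjusted p = 0.00533). Traffic copies had 0.36 for Rab11b-ps2, 0.36 for Nutf2-ps1 and -1.38 for Rab42-ps (adjusted p = 0.0111). In Rab42-ps both Cdk9-DN libraries were above both control libraries at day 4 and below them at day 10. Pcna-ps2 rests on 1 library of each vector at day 4, and Pgam1-ps2 on 1 control library at day 10. Leaving out 1 library ended 10 of the 20, namely the 3 Ppp1r2 copies, the 4 Hmgb1 copies, Amd-ps3, Amd-ps4 and Nutf2-ps1, most often the second Cdk9-DN library of day 4 (adjusted p from 0.0509 to 0.124).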

How the results depend on the processing

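Called members at day 10 numbered 39 in the fit of all libraries and 5 in a fit of day 10 alone, where limma has only the spread within that day, and 28 to 38 under the other 7 settings. With 1 library left out the counts ranged from 4 to 10 averaged over days (10 with all libraries), 0 to 1 at day 5 (1), 22 to 43 in the Cdk9-DN course (42) and 10 to 19 for the change of the difference between day 4 and day 10 (20). The low values of the course came without either Cdk9-DN library of day 4 (22 and 25) or the first of day 10 (26), and those of the change without the second (10) or first (13) Cdk9-DN library of day 4, the second control library of day 10 (13) or the first Cdk9-DN library of day 10 (13). The lowest count averaged over days leaves out Pgam1-ps2 and B3gnt9-ps, which could not be fitted without the first control library of day 10. With only genes listed in all 12 libraries, where fewer genes are tested, the counts were 5 averaged over days, 0 at day 5 and 11 for the change of the difference. The 1 call at day 5 (B3gnt9-ps) gave 0 with an FPKM of at least 5, with a replicate block and in a fit of that day alone. H3f3a-ps2 in control cells turned to -0.061 with quantile normalization. In Cdk9-DN cells Tpt1-ps3 turned to -0.14 with quantile normalization, and Tpt1-ps6 to -0.0098 with median-of-ratios scaling and -0.050 with quantile normalization. The median of all genes in that course moved from 0.11 to -0.03 with median-of-ratios scaling and -0.04 with quantile normalization. The cause of all these changes was not tested. The labels do not say whether replicate numbers pair the libraries. Correlations of deviations of same-numbered libraries ran from -0.144 to 0.107, which cannot show whether such libraries were handled together. With the replicate block 38 members were called at day 10, 52 and 39 in the control and Cdk9-DN courses and 20 for the change of the difference. With 2 libraries a group, 1 library left alone is assumed to vary like the other groups. Ear-ps10, H2-M6-ps, Vmn1r-ps32 and Xlr3d-ps rest on a few implied fragments in the median library, and Vmn1r-ps128 on more. Other members as low include Hist3h2bb-ps (1.0), Hspe1-ps5 (1.0), Gstm2-ps1 (1.2), Marcksl1-ps4 (2.2) and Fam136b-ps (4.1). The part of depth in the results of such low members was not tested.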
